A study of Mus musculus with 25 samples.

Results

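This account describes 10 genes for Fc receptors, the transmembrane adaptors they signal through, and receptors that borrow the same adaptors, in neutrophils from mouse bone marrow. The members were taken by gene symbol from the 35741 rows of the count table, and all 10 were found and passed the filter on low counts, as did 16206 genes in all. They are the IgG receptors Fcgr1, Fcgr2b, Fcgr3 and Fcgr4, the adaptors Fcer1g, Tyrobp and Hcst, and the adaptor-borrowing receptors Trem1, Trem3 and Pira2.

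The study used bulk messenger RNA sequencing (paired reads of 100 bases) to ask how the phosphatase Ptpn6 restrains inflammation driven by caspase-8 and by Ripk3 and Mlkl, the kinase and the pore-forming effector of necroptosis. Cells came from the 68% to 78% Percoll interface, from female C57BL/6J mice of 6 to 13 weeks. The groups with Ptpn6 deleted were Casp8∆PMN Ptpn6∆PMN (1 library), Ripk3-/- Mlkl-/- Casp8∆PMN Ptpn6∆PMN (2), Casp8∆PMN Mlkl-/- Ptpn6∆PMN (2), Ripk3-/- Mlkl-/- Ptpn6∆PMN (3), Mlkl-/- Ptpn6∆PMN (2) and Ripk3-/- Ptpn6∆PMN (3). The groups with intact Ptpn6 were Ripk3-/- Mlkl-/- (2), Mlkl-/- (3), Ripk3-/- (3) and wild-type (3). The Ripk3 and Mlkl alleles are knockouts and ∆PMN marks a deletion whose driver is not given in the sources used here. Every fitted group with a ∆PMN allele also carried a knockout, and no library had a ∆PMN allele with intact Ptpn6. The library Casp8∆PMN Ptpn6∆PMN was the only library labelled as inflamed. A further library had a title and a genotype label that contradict each other, and it entered no comparison. No label says which libraries came from separate mice, so p-values measure the spread between these libraries, which may in part be technical.

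Libraries held 21598177 to 23187676 estimated counts. Levels are given in CPM, counts scaled to a common library size. Ptpn6 itself stood at 120 to 313 CPM in the 13 assigned libraries labelled with its deletion, against 490 to 707 CPM in the 11 assigned libraries with intact Ptpn6. Ripk3 averaged 0.0445 CPM in Ripk3-/- Mlkl-/- and 0.0137 CPM in Ripk3-/-, against 9.64 CPM in wild-type, and it was also lower in Mlkl-/- (3.36 CPM). Mlkl averaged 0.727 CPM in Ripk3-/- Mlkl-/- and 0.715 CPM in Mlkl-/-, against 4.21 CPM in wild-type. The 12 neutrophil markers examined, among them S100a8, Ly6g and Csf3r, were detected in every library and summed to 63861 CPM or more. Markers of other cells were present too: the 12 B cell markers summed to 477 to 2217 CPM in assigned libraries, the 10 monocyte markers to 818 to 1645 CPM, and the 9 markers of basophils and mast cells to 109 to 818 CPM, with no marker of these lists at 0. In such bulk samples, fewer cells of a type and less RNA per cell cannot be told apart.

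Fc receptors bind the constant part of antibodies and carry antigen–antibody complexes into signalling. The activating receptors Fcgr1, Fcgr3 and Fcgr4 have no signalling motif of their own and rely on Fcer1g, the common γ chain, whose tail holds an ITAM, a pair of tyrosines that Src-family kinases phosphorylate and Syk then binds. Tyrobp (DAP12) carries the same kind of motif for receptors such as Trem1 and Trem3, while Hcst (DAP10) carries a motif that recruits phosphatidylinositol 3-kinase. Fcgr2b is the inhibitory Fc receptor of the family, with an ITIM in its own tail. Ptpn6 (SHP-1), the enzyme the study deleted, is a phosphatase that binds phosphorylated ITIMs and reverses tyrosine phosphorylation.

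The signalling motifs are shown to set the adaptors apart from the inhibitory receptor. They are coding bases of the principal transcripts of GENCODE M21 (GRCm38), 5′ to 3′ on the gene's strand, with the codons of the motif tyrosines in capitals. The Fcer1g and Tyrobp stretches each span 17 codons of the ITAM (codons 63 to 79 of 86 in Fcer1g, and 90 to 106 of 114 in Tyrobp). Hcst has a single tyrosine codon in a stretch that ends at its last codon, 79. Fcgr2b has a single ITIM tyrosine within codons 313 to 325 of 340.
Fcer1g ITAM: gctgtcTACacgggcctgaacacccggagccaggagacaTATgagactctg
Tyrobp ITAM: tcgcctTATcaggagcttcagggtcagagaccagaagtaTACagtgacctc
Hcst YxxM: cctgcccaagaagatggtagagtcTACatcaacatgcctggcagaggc
Fcgr2b ITIM: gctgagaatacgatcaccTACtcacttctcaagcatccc
Read as codons, a tyrosine, 2 codons, leucine or isoleucine, then 6 to 8 codons and the same pattern again, occurred once each in Fcer1g and Tyrobp and in none of the other 8 members. Of 21756 coding sequences searched, 618 held it (2.84%). The pattern is a description of the letters and not a test of function.

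In wild-type neutrophils the adaptors Tyrobp and Fcer1g were by far the most abundant members. Per kilobase of principal transcript, Tyrobp had 1781 ± 153 CPM and Fcer1g 1179 ± 98.6 CPM (SD, n = 3 throughout for wild-type). Fcgr3, the low-affinity activating receptor for IgG, followed at 387 ± 28.6 CPM per kilobase. Trem3 had 149 ± 12.2, Hcst 99.0 ± 13.0, Fcgr4 84.6 ± 9.85, Pira2 72.6 ± 7.10 and Trem1 52.4 ± 3.97 CPM per kilobase. The inhibitory Fcgr2b stood at 11.8 ± 0.978 and the high-affinity receptor Fcgr1 at 0.447 ± 0.164 CPM per kilobase. Hcst and Fcgr4 overlapped between libraries, as did Fcgr4 and Pira2, and the other neighbours in this order did not.

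**Figure D1:**
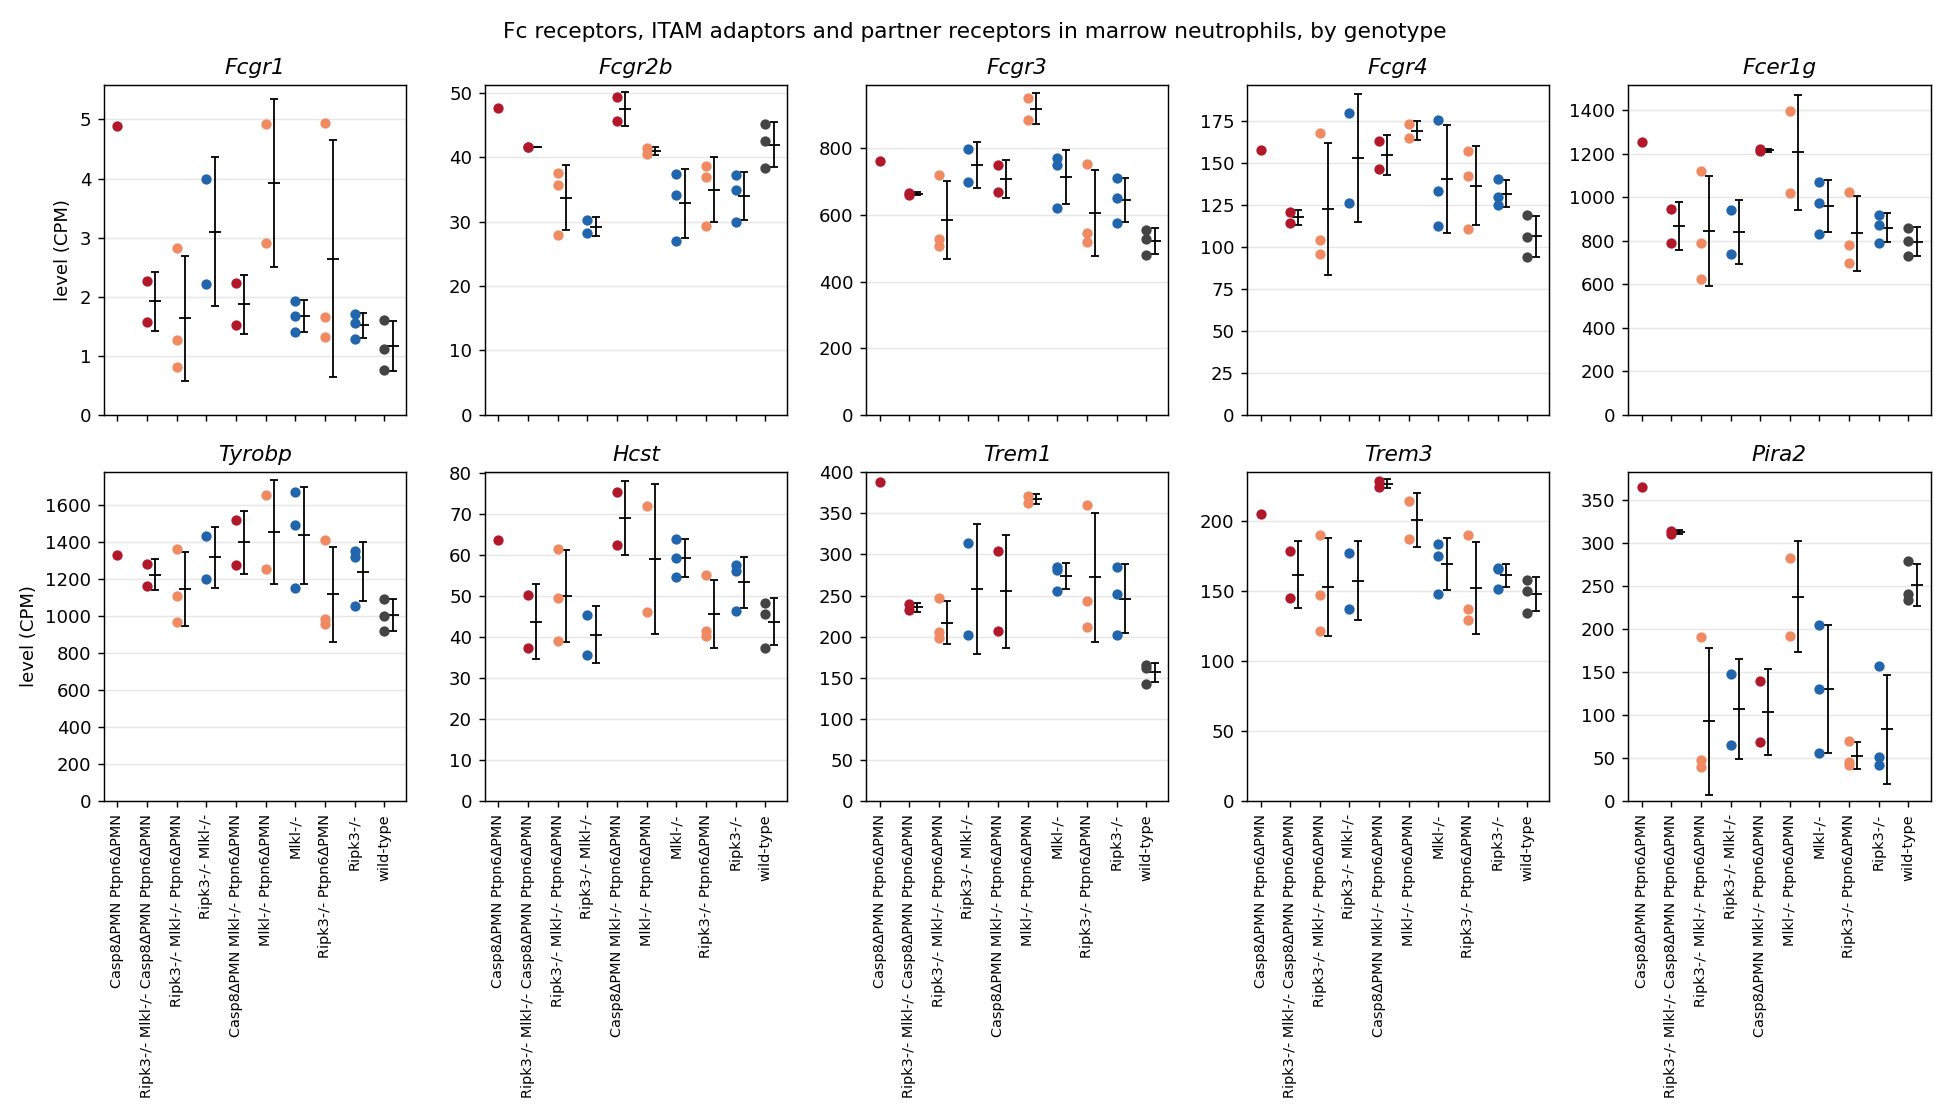
Level of each of the 10 genes (y axis, CPM, linear from 0) in 24 assigned libraries, grouped by genotype (x axis); points are libraries, and the offset dash and bar give mean ± SD for groups of 2 or 3. Red marks Casp8 and Ptpn6 deletion, orange Ptpn6 deletion, blue knockouts with intact Ptpn6 and grey wild-type. All knockout libraries lie above the 3 wild-type libraries for Trem1, and Pira2 spreads widely within most knockout groups.

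The first comparison asked whether loss of Ripk3, Mlkl or both changed these genes while Ptpn6 was intact. Changes were tested with edgeR's quasi-likelihood test and called at an adjusted p under 0.05 over all 16206 genes. Trem1, which amplifies neutrophil responses to microbial products through Tyrobp, was the only member to pass the test, and only in Mlkl-/- neutrophils. It was measured at 256, 281 and 285 CPM in Mlkl-/- libraries, against 143, 165 and 162 CPM in wild-type libraries. The groups did not overlap, with means of 274 ± 15.6 CPM in Mlkl-/- and 157 ± 11.9 CPM in wild-type (SD, n = 3 each). The log2 change was 0.80 (SE 0.19, edgeR adjusted p = 0.048), or 1.75-fold, higher in 3 of 3 libraries. In that comparison 188 of 16206 genes were called (1.16%), so 1 member of 10 is read against that share.

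The Trem1 call was close to the threshold. It was lost when any of the 3 wild-type libraries, or replicate 2 or 3 of Mlkl-/-, was left out (log2 change 0.74 to 0.84, edgeR adjusted p = 0.116 to 0.235), while its size hardly moved. Replicate 1 of Mlkl-/- could be left out without losing it (log2 change 0.85, edgeR adjusted p = 0.0412). It was also lost with the replicate number as a block (log2 change 0.81, edgeR adjusted p = 0.0529), while DESeq2 gave an adjusted p of 0.00493. Of the 10 monocyte markers, Csf1r was also higher in Mlkl-/- (log2 change 0.74, SE 0.14, edgeR adjusted p = 0.0166), and the sum of the list was 1092 to 1132 CPM in Mlkl-/- against 985 to 1075 CPM in wild-type. Of the 10 markers 3 had a positive log2 change, and the median was -0.44, beside -0.03 for all genes. All 12 macrophage markers were positive in Mlkl-/- (median 0.78, none called), with sums of 94.3 to 251 CPM against 86.3 to 125 CPM in wild-type. All 12 were positive in Ripk3-/- Mlkl-/- too (median 0.80, 1 called), and 5 of 12 were in Ripk3-/- (median -0.05). The 8 tested markers of early granule formation, such as Mpo and Elane of immature neutrophils, had no positive log2 change in any of the 3 knockouts, with medians of -1.90, -1.42 and -1.03 in Ripk3-/- Mlkl-/-, Mlkl-/- and Ripk3-/-. They summed to 209 to 383 CPM in Mlkl-/- against 507 to 610 CPM in wild-type. The part of these marker lists in the Trem1 result was not tested.

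Trem1 was also above every wild-type library in the other knockouts, which share those 3 wild-type libraries with the Mlkl-/- comparison. It reached 314 and 202 CPM in Ripk3-/- Mlkl-/- libraries (log2 change 0.72, SE 0.21, edgeR adjusted p = 0.113). In Ripk3-/- libraries it reached 202, 252 and 285 CPM (log2 change 0.65, SE 0.19, edgeR adjusted p = 0.278). Neither change passed the test. Trem1 passed when the other groups were left out of the fit, with edgeR adjusted p = 0.0471 for Ripk3-/- Mlkl-/- and 0.0401 for Ripk3-/-. Fitted that way, 5.49% and 1.24% of all genes were called in these comparisons.

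The Trem1 promoter is shown because Trem1 was the called member, and the Fcgr1 promoter because Fcgr1 had the largest positive log2 change of the members among the 3 knockouts against wild-type. Both are RefSeq windows of GRCm38.p6, from 250 bases before to 50 after the gene start, at chr17:48232489-48232788 (plus strand) and chr3:96293920-96294219 (minus strand). The table held windows for 8 of the 10 members. Capitals mark TTCNNNGAA, a palindromic pattern searched on both strands.
Trem1 promoter: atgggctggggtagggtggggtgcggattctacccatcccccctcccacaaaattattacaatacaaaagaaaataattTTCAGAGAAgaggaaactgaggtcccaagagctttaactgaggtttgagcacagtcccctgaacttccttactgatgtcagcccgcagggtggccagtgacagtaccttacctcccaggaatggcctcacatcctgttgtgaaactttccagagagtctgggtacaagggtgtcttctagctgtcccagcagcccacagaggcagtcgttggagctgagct
Fcgr1 promoter: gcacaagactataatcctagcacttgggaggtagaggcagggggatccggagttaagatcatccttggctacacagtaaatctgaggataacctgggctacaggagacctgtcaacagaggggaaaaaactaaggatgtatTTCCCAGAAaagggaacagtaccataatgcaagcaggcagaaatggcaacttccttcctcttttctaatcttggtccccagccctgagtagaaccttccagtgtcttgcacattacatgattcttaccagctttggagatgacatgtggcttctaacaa
The pattern lies 171 bases before the start of Trem1 and 109 before that of Fcgr1. It occurred in 2 of the 8 member windows, the 2 shown, and in 8.30% of 32851 promoters of the same length. GAGGAA, searched in the same way, occurred in 5 of the 8 windows and in 28.3% of promoters, and its matches may overlap with the first pattern. A match says only that these letters are present.

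The inhibitory and activating Fc receptors had log2 changes of opposite sign against wild-type in all 3 knockouts, although no Fc receptor passed the test. Only Fcgr2b and Fcgr3 were free of overlap with wild-type in all 3. Fcgr2b was measured at 30.2 and 28.2 CPM in Ripk3-/- Mlkl-/-, at 37.4, 26.9 and 34.2 CPM in Mlkl-/-, and at 35.0, 29.9 and 37.2 CPM in Ripk3-/-, against 42.5, 45.1 and 38.3 CPM in wild-type. Each knockout library was below each wild-type library. The log2 changes were -0.52 (SE 0.16, edgeR adjusted p = 0.12), -0.35 (SE 0.14, edgeR adjusted p = 0.183) and -0.30 (SE 0.14, edgeR adjusted p = 0.691) in Ripk3-/- Mlkl-/-, Mlkl-/- and Ripk3-/-. The first of these passed when the other groups were left out of the fit (edgeR adjusted p = 0.0353), where 5.49% of all genes were called.

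Fcgr3 took the opposite direction in value. It stood at 799 and 701 CPM in Ripk3-/- Mlkl-/-, at 621, 750 and 772 CPM in Mlkl-/-, and at 576, 650 and 710 CPM in Ripk3-/-, against 479, 556 and 528 CPM in wild-type. All 8 knockout libraries were above the wild-type range. The log2 changes were 0.53 (SE 0.17), 0.46 (SE 0.16) and 0.31 (SE 0.15), with edgeR adjusted p of 0.154, 0.138 and 0.75, in the same order of genotypes. Fcgr2b and Fcgr3 are neighbours on chromosome 1 and share 233 stretches of 31 bases, 13.4% of those in Fcgr3 and 4.15% of those in Fcgr2b, so part of their reads could be assigned to either. The identity of their aligned coding bases is 83.7%.

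Fcgr4, an activating receptor of mouse neutrophils for IgG2 subclasses, averaged 153 ± 38.1 CPM in Ripk3-/- Mlkl-/- (n = 2), 140 ± 32.1 CPM in Mlkl-/- (n = 3) and 132 ± 8.07 CPM in Ripk3-/- (n = 3), against 106 ± 12.4 CPM in wild-type (SD, n = 3). None of these passed (log2 change 0.31 to 0.53, edgeR adjusted p = 0.267 to 0.876). Fcgr1 was scarce, with 18 to 121 counts per library. It had 4.00 and 2.21 CPM in Ripk3-/- Mlkl-/-, against 1.60, 0.757 and 1.11 CPM in wild-type (log2 change 1.41, SE 0.53, edgeR adjusted p = 0.219). Both Ripk3-/- Mlkl-/- libraries were above all 3 wild-type libraries. In Mlkl-/- and Ripk3-/- Fcgr1 overlapped wild-type (log2 change 0.52 and 0.38, SE 0.49 each, edgeR adjusted p = 0.563 and 0.968).

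The adaptors showed smaller differences from wild-type than Trem1. Tyrobp averaged 1317 ± 167 CPM in Ripk3-/- Mlkl-/- (n = 2), 1438 ± 262 CPM in Mlkl-/- (n = 3) and 1241 ± 160 CPM in Ripk3-/- (n = 3), against 1005 ± 86.3 CPM in wild-type (SD, n = 3). Its largest log2 change was 0.52, in Mlkl-/- (SE 0.18, edgeR adjusted p = 0.153), where all 3 libraries lay above wild-type. Fcer1g averaged 840 ± 145, 959 ± 119 and 860 ± 66.1 CPM in the same 3 genotypes, against 795 ± 66.5 CPM in wild-type, and each knockout overlapped wild-type. Hcst was higher in value in Mlkl-/- (59.2 ± 4.60 CPM against 43.8 ± 5.73 CPM in wild-type, log2 change 0.44, SE 0.19, edgeR adjusted p = 0.221) and had a log2 change of -0.11 in Ripk3-/- Mlkl-/-. Trem3, a second Tyrobp-associated receptor, had log2 changes of only 0.09 to 0.20.

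Counted over the 10 members, 7, 8 and 8 had a positive log2 change in Ripk3-/- Mlkl-/-, Mlkl-/- and Ripk3-/-. Their median log2 changes were 0.24, 0.42 and 0.30, beside -0.03, -0.03 and 0.00 for all tested genes. Groups did not overlap for 7 of the 10 in Ripk3-/- Mlkl-/- (40.2% of all genes), 6 in Mlkl-/- (31.3%) and 5 in Ripk3-/- (19.4%). No member was called in Ripk3-/- Mlkl-/-, where 1.04% of genes were, or in Ripk3-/-, where 0.228% were. DESeq2 also called none of the 10 in either. At an unadjusted edgeR p under 0.05 there were 5 members in Ripk3-/- Mlkl-/- (14.3% of all genes), 5 in Mlkl-/- (19.4%) and 3 in Ripk3-/- (6.86%).

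**Figure D2:**
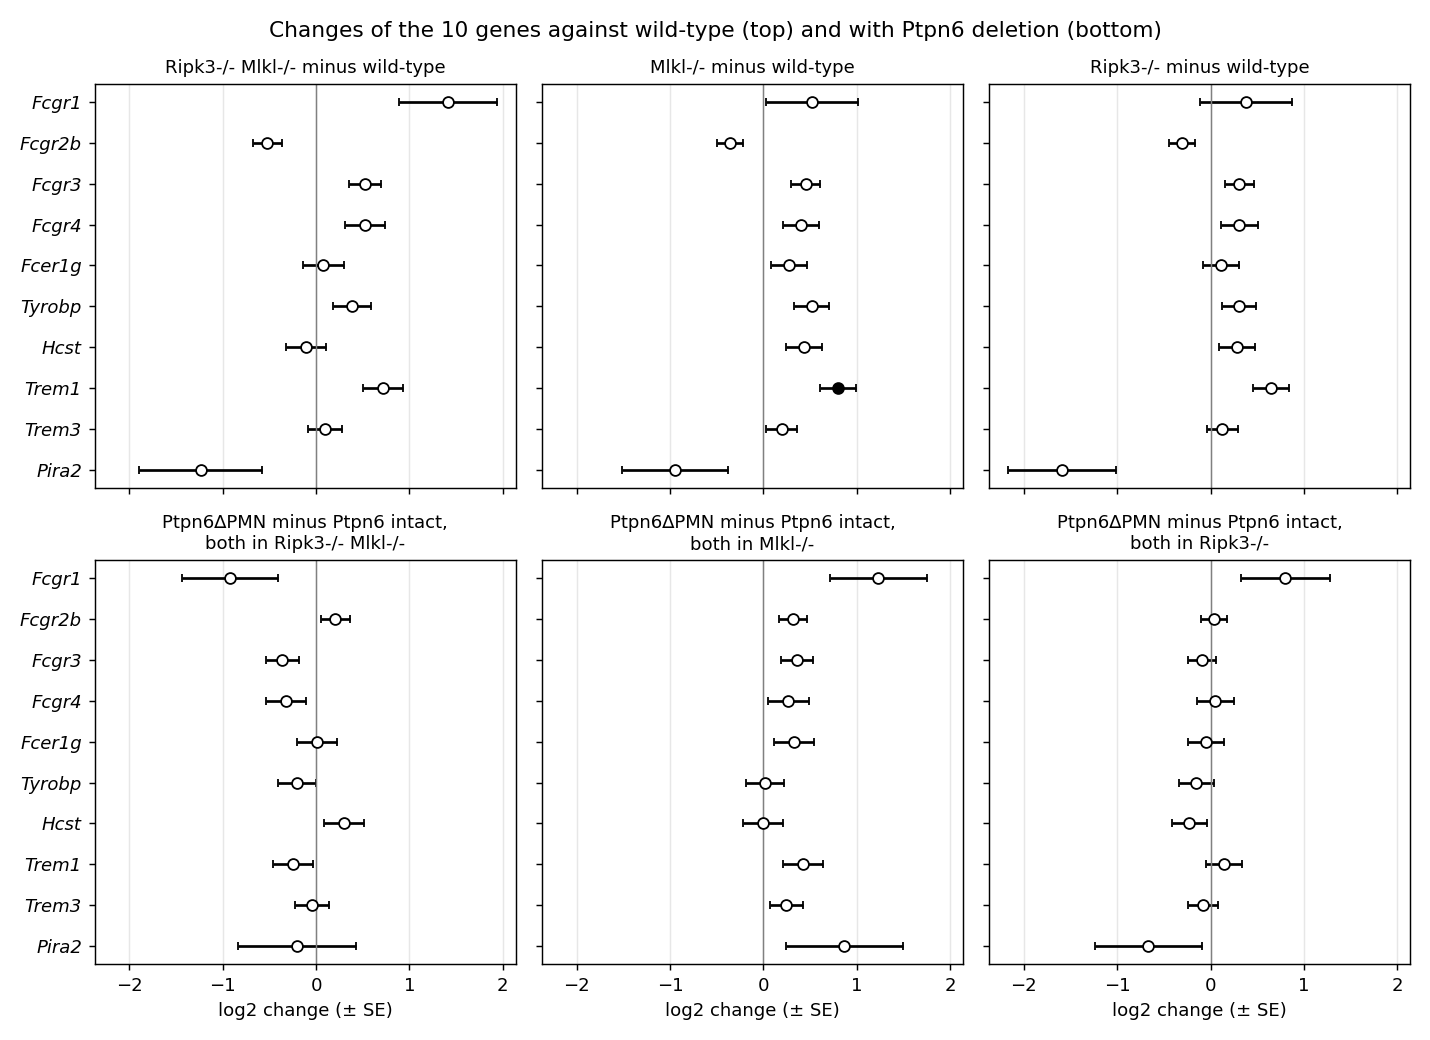
Log2 change of each of the 10 genes (x axis, ± SE from edgeR) for 3 knockouts against wild-type (top) and for Ptpn6 deletion within each knockout (bottom). Filled points have an adjusted p under 0.05, and the only filled point is Trem1 in Mlkl-/- (0.80). Fcgr2b lies below 0 in every top panel and Fcgr1 changes sign between the bottom panels.

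The central comparison of the study, deletion of Ptpn6 within a knockout, called none of the 10 members in any background with edgeR or DESeq2. Ptpn6 itself was called by edgeR within Mlkl-/- and within Ripk3-/-. Within Ripk3-/- Mlkl-/- it was not (log2 change -1.01, SE 0.17, edgeR adjusted p = 0.0838), although the groups did not overlap. The edgeR test there missed the deleted gene, so it could miss changes of the members too. Within Ripk3-/- Mlkl-/-, 0.00617% of all genes were called and the members' log2 changes ran from -0.92 to 0.30. Within Mlkl-/-, 1.51% of genes were called and they ran from -0.01 to 1.23. Within Ripk3-/-, 0.0185% were called and they ran from -0.67 to 0.80. At an unadjusted edgeR p under 0.05 there were 0, 2 and 0 members in these 3 comparisons, beside 5.12%, 17.5% and 5.5% of all genes. Averaged over the 3 backgrounds, where 1.55% of genes were called, Fcgr2b had the smallest p among the members and the only unadjusted p under 0.05, beside 15.5% of all genes (log2 change 0.19, SE 0.09, edgeR adjusted p = 0.297).

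Most values were above 0 with Ptpn6 deletion in Mlkl-/-. There, 9 of 10 members had a positive log2 change with a median of 0.32, beside -0.04 for all genes, and 5 of 10 had groups that did not overlap, a property shared by 35.7% of all genes. Neutrophil markers moved with them in value, with 11 of 12 positive (median 0.56) and sums of 129530 to 145580 CPM in Mlkl-/- Ptpn6∆PMN against 85560 to 99734 CPM in Mlkl-/-. Monocyte markers were positive in 8 of 10 (median 0.54) and macrophage markers in 0 of 12 (median -1.23). No marker of these 3 lists was called there, and their part in the members' values was not tested. With Ptpn6 deletion in Ripk3-/- Mlkl-/-, 3 of 10 were positive with a median of -0.20, beside 0.03 for all genes. In Ripk3-/- 4 of 10 were positive with a median of -0.06, beside 0.00 for all genes. Groups overlapped for all 10 in both of these backgrounds (13.4% and 9.21% of all genes did not overlap).

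Fcgr3 had changes of opposite sign between backgrounds. It reached 952 and 887 CPM in Mlkl-/- Ptpn6∆PMN, above the 621 to 772 CPM of Mlkl-/- (log2 change 0.36, SE 0.17, edgeR adjusted p = 0.281). In Ripk3-/- Mlkl-/- Ptpn6∆PMN it stood at 506, 527 and 721 CPM, against 799 and 701 CPM in Ripk3-/- Mlkl-/- (log2 change -0.36, SE 0.17, edgeR adjusted p = 0.846). In Ripk3-/- Ptpn6∆PMN it stood at 518, 755 and 546 CPM, which spans the Ripk3-/- range (log2 change -0.09, SE 0.15). The test of whether the Ptpn6 effect differs between the 3 backgrounds gave an unadjusted p of 0.0246 for Fcgr3 and an edgeR adjusted p of 0.758. That edgeR test called 0 of 16206 genes (0%). Without adjustment 6.5% of genes and 2 members had p under 0.05, and DESeq2 called 0.197% of genes.

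Fcgr1 had the widest spread between backgrounds. It was measured at 2.91 and 4.93 CPM in Mlkl-/- Ptpn6∆PMN, against 1.68, 1.40 and 1.93 CPM in Mlkl-/- (log2 change 1.23, SE 0.52, edgeR adjusted p = 0.221). In Ripk3-/- Ptpn6∆PMN it had 1.31, 1.66 and 4.95 CPM, against 1.56, 1.70 and 1.28 CPM in Ripk3-/-. The log2 change there was 0.80 (SE 0.48) and rested on replicate 3, without which it was -0.03. In Ripk3-/- Mlkl-/- Ptpn6∆PMN it had 0.806, 2.82 and 1.27 CPM, against 4.00 and 2.21 CPM in Ripk3-/- Mlkl-/- (log2 change -0.92, SE 0.52, edgeR adjusted p = 0.846). For Fcgr1 the difference between backgrounds had an unadjusted p of 0.0193 and an edgeR adjusted p of 0.758.

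Fcgr1 is known as an interferon-induced receptor, and a list of 26 other interferon-stimulated genes was read beside it. All 26 had a positive log2 change with Ptpn6 deletion in Mlkl-/- (median 1.08), beside 45.8% of all genes and a median of -0.04, and 6 of them rose past the test, beside 1.51% of all genes called. Zbp1, a sensor of nucleic acids, rose most (log2 change 1.84, SE 0.35, edgeR adjusted p = 0.0253), and Oas1a (1.55), Xaf1 (1.55) and Gbp2 (1.34) were the next largest. With Ptpn6 deletion in Ripk3-/- Mlkl-/- none of the 26 was positive (median -0.47), and in Ripk3-/- 14 of 26 were (median 0.05), with 0 called by edgeR in both. All 26 were positive as well in Ripk3-/- Mlkl-/- against wild-type (median 0.70), and none was called. The list's summed level was 4379 and 5706 CPM in Mlkl-/- Ptpn6∆PMN, against 2326 to 2903 CPM in Mlkl-/-.

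The list and Fcgr1 did not match in every library. Replicate 3 of Ripk3-/- Ptpn6∆PMN, with the highest Fcgr1 level of all assigned libraries (4.95 CPM), had the lowest summed interferon level of its group, 2087 CPM. In that library the 10 monocyte markers summed to 1645 CPM, the highest of any assigned library, against 889 and 1110 CPM in the other replicates of the group. Monocytes express Fcgr1 strongly, and the part of these markers in the Fcgr1 levels was not tested.

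**Figure D3:**
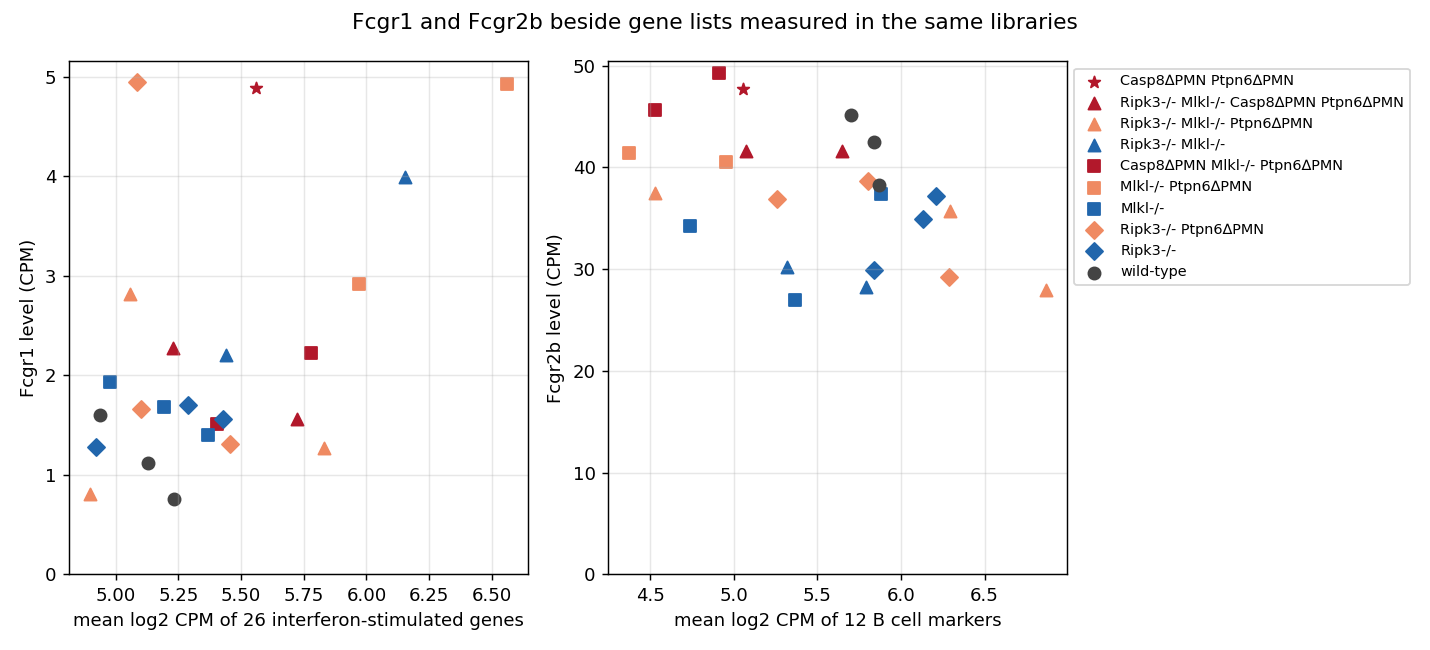
Left, Fcgr1 level (CPM) against the mean log2 CPM of 26 interferon-stimulated genes; right, Fcgr2b level (CPM) against the mean log2 CPM of 12 B cell markers. Each point is 1 of 24 assigned libraries, with colour and shape giving the genotype. Fcgr1 reaches 4.93 CPM in the library with the highest interferon mean (6.56) and 4.95 CPM in a library with a mean of 5.09, and wild-type Fcgr2b lies above all knockouts with intact Ptpn6.

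Deletion of Casp8 on top of Ptpn6 called none of the members, and none of all 16206 genes, with edgeR (0% in both backgrounds). Casp8 itself was therefore not called. In the Mlkl-/- background its log2 change was -0.46 (SE 0.18, edgeR adjusted p = 0.453) and the groups overlapped. In Ripk3-/- Mlkl-/- it was -0.70 (SE 0.17, edgeR adjusted p = 0.864) without overlap. Tests that miss the deleted gene cannot show that the members were unchanged. At an unadjusted p under 0.05 there was 1 member of 10 in each (9.35% of all genes in the Mlkl-/- background and 4.63% in Ripk3-/- Mlkl-/-), and DESeq2 called none of the 10 and 0.555% and 0.00617% of all genes. Trem1 had 304 and 207 CPM in Casp8∆PMN Mlkl-/- Ptpn6∆PMN, against 363 and 372 CPM in Mlkl-/- Ptpn6∆PMN (log2 change -0.52, SE 0.24, edgeR adjusted p = 0.506). In Ripk3-/- Mlkl-/- Casp8∆PMN Ptpn6∆PMN it had 240 and 232 CPM, against 198, 206 and 247 CPM in Ripk3-/- Mlkl-/- Ptpn6∆PMN and the groups overlapped. With 2 libraries a group, non-overlap was common: 7 of 10 members in the Mlkl-/- background, beside 41% of all genes, and 2 of 10 in Ripk3-/- Mlkl-/-, beside 14.7%.

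Under joint deletion of Casp8 and Ptpn6, Fcgr2b was higher in value in both backgrounds. It reached 45.7 and 49.3 CPM in Casp8∆PMN Mlkl-/- Ptpn6∆PMN, against 37.4, 26.9 and 34.2 CPM in Mlkl-/- (log2 change 0.53, SE 0.15, edgeR adjusted p = 0.12). It reached 41.6 CPM in both libraries of Ripk3-/- Mlkl-/- Casp8∆PMN Ptpn6∆PMN, against 30.2 and 28.2 CPM in Ripk3-/- Mlkl-/- (log2 change 0.51, SE 0.17, edgeR adjusted p = 0.45). The groups did not overlap in either background, and neither change passed the test. These comparisons called 0.0185% and 0.0123% of all genes, 0 of the 10 members, and 2 members each at an unadjusted p under 0.05 (15.5% and 8.03% of all genes). Groups did not overlap for 3 and 4 of the members (34.5% and 40.1% of all genes). Casp8 itself was not called in either (log2 change -0.45 and -0.67, edgeR adjusted p = 0.21 and 0.445). Ptpn6 was not called in the Ripk3-/- Mlkl-/- background (log2 change -1.15, edgeR adjusted p = 0.0506).

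B cells express Fcgr2b strongly, so B cell markers were read beside it. The 12 markers summed to 492 and 610 CPM in Casp8∆PMN Mlkl-/- Ptpn6∆PMN, against 713 to 1126 CPM in Mlkl-/-, and 0 of 12 had a positive log2 change. In Ripk3-/- Mlkl-/- Casp8∆PMN Ptpn6∆PMN they summed to 676 and 1112 CPM, against 751 and 1206 CPM in Ripk3-/- Mlkl-/-, again with 0 of 12 positive. The sums overlapped in the second of these comparisons. Against wild-type, where Fcgr2b was lower in value in all 3 knockouts, 3 of 12 were positive in Ripk3-/- Mlkl-/- (median log2 change -0.36), 1 of 12 in Mlkl-/- (median -0.40) and 12 of 12 in Ripk3-/- (median 0.15). The part of B cells in the Fcgr2b values was not tested.

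Trem3 and Fcer1g also stood high in Casp8∆PMN Mlkl-/- Ptpn6∆PMN. Trem3 had 229 and 225 CPM there, against 149, 184 and 176 CPM in Mlkl-/- (log2 change 0.42, SE 0.18, edgeR adjusted p = 0.27). Fcer1g had 1220 and 1210 CPM, against 832, 1069 and 975 CPM in Mlkl-/-. Both libraries lay above all 3 Mlkl-/- libraries for each gene, and neither change passed the test. Of the 12 neutrophil markers 10 were positive in the same comparison (median 0.41, none called), with sums of 136460 and 136970 CPM in Casp8∆PMN Mlkl-/- Ptpn6∆PMN against 85560 to 99734 CPM in Mlkl-/-. Their part in these values was not tested.

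Pira2, an activating receptor of the paired immunoglobulin-like family that pairs with Fcer1g, had the widest range of the members relative to its mean, 39.7 to 365 CPM around a mean of 155 CPM over the 24 assigned libraries. It had 65.7 and 148 CPM in Ripk3-/- Mlkl-/-, 130, 55.6 and 205 CPM in Mlkl-/-, and 42.3, 51.8 and 157 CPM in Ripk3-/-, against 234, 279 and 240 CPM in wild-type. All 8 knockout libraries were below wild-type, and the SD was 58.2, 74.5 and 63.4 CPM in these knockouts against 24.6 CPM in wild-type. The log2 changes were -1.23 (SE 0.66), -0.95 (SE 0.57) and -1.59 (SE 0.58), with edgeR adjusted p of 0.418, 0.358 and 0.492.

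Pira2 belongs to a cluster on chromosome 7 (3836808 to 3845104, minus strand, GRCm38) whose genes are close copies of each other. The first 90 coding bases of Pira2 and of 4 neighbours, from the GENCODE M21 principal transcripts, show how close they are. Capitals mark bases that differ from Pira2.
Pira2: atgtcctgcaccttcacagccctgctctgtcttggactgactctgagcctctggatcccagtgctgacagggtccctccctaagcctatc
Gm14548: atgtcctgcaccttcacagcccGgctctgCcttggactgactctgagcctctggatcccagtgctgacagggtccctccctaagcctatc
Gm15448: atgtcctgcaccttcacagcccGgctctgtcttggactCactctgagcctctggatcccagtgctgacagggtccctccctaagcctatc
Lilra6: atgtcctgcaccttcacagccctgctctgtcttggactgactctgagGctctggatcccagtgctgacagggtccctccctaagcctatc
Pirb: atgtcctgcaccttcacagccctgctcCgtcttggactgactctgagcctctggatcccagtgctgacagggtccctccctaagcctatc
Over the aligned coding bases, Pira2 was 97.9% identical to Gm14548, 96.4% to Gm15448, 95.7% to Lilra6 and 94.7% to Pirb, the inhibitory receptor of the family. Of the 3462 stretches of 31 bases in Pira2 transcripts, 96.7% occur in transcripts of another annotated gene. Most are shared with Gm15922 (88.1%), which is neither shown here nor among the rows summed below. Gm14548 shares 37.6% and Pirb 30.4%. The counts of Pira2 and its neighbours therefore depend on how reads were divided among the copies, and their levels are uncertain. Fcgr1, Fcer1g, Tyrobp, Hcst and Trem3 share no such stretch with another gene, and Trem1 and Fcgr4 share 0.703% and 1.39%.

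The sum of 6 activating-type rows of the cluster (Pira2, Pira1, Pira6, Lilra6, Gm14548 and Gm15448) was far steadier than Pira2. It ran from 804 to 1306 CPM over the 24 assigned libraries, with 1088 ± 99.8 CPM in Ripk3-/- Mlkl-/-, 1075 ± 219 CPM in Mlkl-/- and 936 ± 62.7 CPM in Ripk3-/-, against 890 ± 95.6 CPM in wild-type. With the 6 rows summed, the log2 changes against wild-type turned positive, at 0.29, 0.27 and 0.07 (edgeR adjusted p = 0.547, 0.409 and 0.99), an alternative chosen after seeing the data. Within this sum, the division among rows differed between libraries. Pirb, which is not in the sum, was not steady and ran from 416 to 2128 CPM over the 24 assigned libraries. Pira2 took 5.67% and 14.5% of the sum in Ripk3-/- Mlkl-/-, 15.0%, 5.26% and 15.7% in Mlkl-/-, and 4.88%, 5.23% and 16.5% in Ripk3-/-, against 28.1%, 27.9% and 28.7% in wild-type. Pira1 went the other way, and its row rose past the test in Ripk3-/- Mlkl-/- (log2 change 1.65, SE 0.36, edgeR adjusted p = 0.0304) and in Mlkl-/- (1.46, SE 0.33, edgeR adjusted p = 0.0336).

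The groups with Ptpn6 deletion held the same range of shares. Pira2 took 24.7% and 25.4% of the sum in Ripk3-/- Mlkl-/- Casp8∆PMN Ptpn6∆PMN, 6.16% and 16.9% in Casp8∆PMN Mlkl-/- Ptpn6∆PMN and 31.5% in the library Casp8∆PMN Ptpn6∆PMN. It took 4.94%, 5.09% and 16.9% in Ripk3-/- Mlkl-/- Ptpn6∆PMN, 15.8% and 28.1% in Mlkl-/- Ptpn6∆PMN, and 4.91%, 5.40% and 5.13% in Ripk3-/- Ptpn6∆PMN. Shares thus differed widely between replicates of the same genotype, as 4.94% and 16.9% in Ripk3-/- Mlkl-/- Ptpn6∆PMN show.

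Eps8l1, a gene outside the cluster on chromosome 7 (4460638 to 4480487), varied with the Pira2 row. It had 1 and 650 counts in Ripk3-/- Mlkl-/-, 889, 1 and 841 in Mlkl-/-, and 4, 20 and 659 in Ripk3-/-, against 810, 644 and 719 in wild-type. In each knockout group the libraries with 20 counts or fewer were those with a Pira2 share under 6%. In Ripk3-/- Ptpn6∆PMN it had 5, 2 and 3 counts. The Pearson correlation of Pira2 with Eps8l1 was 0.90 over the 24 assigned libraries on the log2 CPM scale, and with Pirb it was 0.93. More distant genes of chromosome 7 were also among those most like Pira2: Ccdc9 (0.783, from base 16272013), Slc1a5 (0.763, from 16781334) and Mark4 (0.775, from 19425102). Among the lowest were Sae1 (-0.712, from 16320236) and Dhx34 (-0.701, from 16197220), also on chromosome 7. Gm35383 of chromosome 5 (0.784) and Itgb1 of chromosome 8 (-0.71) were at these ends too. Libraries of 1 group share genotype and source, so these values only describe. What sets Eps8l1 in these libraries, and its part in the Pira2 values, was not tested.

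**Figure D4:**
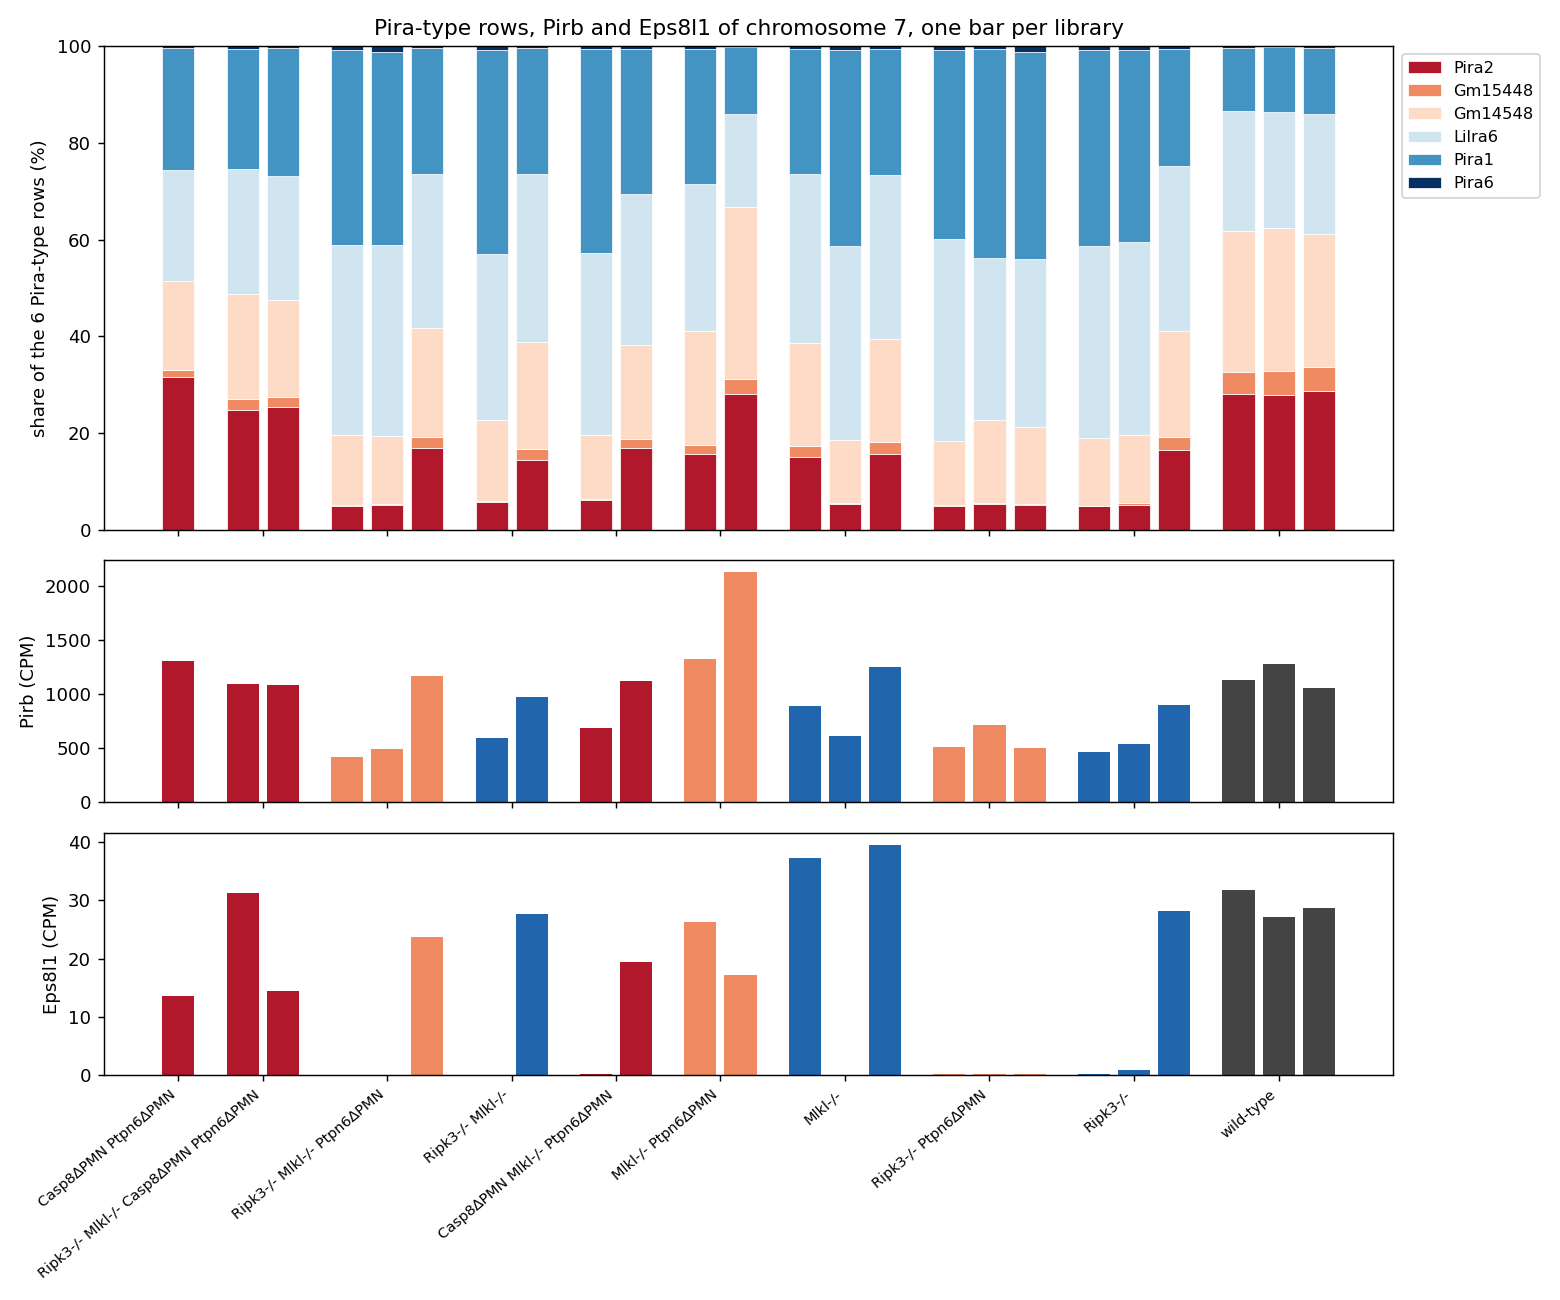
Top, share of each of 6 Pira-type rows in their summed CPM (percent, stacked); middle and bottom, CPM of Pirb and Eps8l1. Each bar is 1 of 24 assigned libraries, grouped by genotype. Pira2 takes 4.88% to 31.5% of the sum, and Eps8l1 is close to 0 in the libraries where that share is lowest.

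With Casp8 deletion the Pira2 row had changes of opposite sign in the 2 backgrounds. It had 68.7 and 139 CPM in Casp8∆PMN Mlkl-/- Ptpn6∆PMN, against 192 and 283 CPM in Mlkl-/- Ptpn6∆PMN. It had 314 and 310.5 CPM in Ripk3-/- Mlkl-/- Casp8∆PMN Ptpn6∆PMN, against 39.7, 47.7 and 191 CPM in Ripk3-/- Mlkl-/- Ptpn6∆PMN. The groups did not overlap in either. The log2 changes were -1.19 (SE 0.70) and 1.75 (SE 0.62), and the test of their difference gave an edgeR adjusted p of 0.431. That test called 0.00617% of all genes and no member, with 2 members and 9.29% of genes at an unadjusted p under 0.05. The division among copies and the variation with other genes of chromosome 7, both described above, apply to these values as well. The part of either was not tested.

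Several members varied together from library to library. Over the 24 assigned libraries, Fcer1g and Trem3 had a Pearson correlation of 0.97 on the log2 CPM scale, Fcgr3 and Tyrobp 0.89, and Fcgr3 and Trem1 0.85. Fcgr2b correlated with Fcgr3 at 0.11 and with Tyrobp at 0.01, but with Pira2 at 0.61, Trem3 at 0.47 and Fcer1g at 0.46. Among 7277 genes with a mean of at least 10 CPM, the genes most like Fcer1g were Ostf1 (0.98) and Atp6v0c (0.97), and Ostf1 was also first for Trem3 (0.98). Tnfrsf1a was among the genes most like Fcgr3 (0.95), and Trem1 was nearest to Mxd1 (0.95) and Klhl2 (0.95). Tyrobp was nearest to Cd82 (0.97), Fcgr4 to Rap1b (0.92), Hcst to Tmsb4x (0.91), Fcgr2b to Coro7 (0.93) and Fcgr1 to Ctss (0.84). All these values share libraries, depth and scaling, and they only describe.

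Of 30 other receptors that use ITAM adaptors, or chains that carry the motif, 26 were tested. Against wild-type, 3, 4 and 2 of them were called in Ripk3-/- Mlkl-/-, Mlkl-/- and Ripk3-/-, beside 1.04%, 1.16% and 0.228% of all genes. Clec1b and Klra8 fell in all 3 knockouts, which share the wild-type libraries. Clec1b, known from platelets and also found on myeloid cells, averaged 0.609 ± 0.401 CPM in Ripk3-/- Mlkl-/-, 0.790 ± 0.461 CPM in Mlkl-/- and 0.492 ± 0.114 CPM in Ripk3-/-, against 5.64 ± 0.381 CPM in wild-type. Its log2 changes were -3.19, -2.83 and -3.51 (edgeR adjusted p = 0.00261, 0.00108 and 0.00017). Klra8, a natural killer cell receptor that pairs with Tyrobp and belongs to a family of near copies, had log2 changes of -3.18, -4.52 and -3.59 (edgeR adjusted p = 0.00951, 0.000203 and 0.000889). Levels of both were low, so their rows rest on 12 to 52 counts per knockout group.

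Clec4d, a C-type lectin that signals through Fcer1g, rose in Mlkl-/- to 589 ± 82.3 CPM, against 303 ± 46.8 CPM in wild-type (SD, n = 3 each), which was 0.96 on the log2 scale (edgeR adjusted p = 0.0367, SE 0.22). Along with Trem1 and Pira1 it was among the adaptor-borrowing receptors called higher there. Cd300c2 fell with Ptpn6 deletion averaged over the 3 backgrounds (log2 change -0.53, SE 0.12, edgeR adjusted p = 0.0343), and no other receptor of this list was called in a Ptpn6 or Casp8 comparison. Of 10 further Fc receptors and antibody-binding proteins tested, Ms4a2, the β chain of the IgE receptor, fell in Ripk3-/- Mlkl-/- (log2 change -1.75, SE 0.41, edgeR adjusted p = 0.0463). The 9 markers of basophils and mast cells, Ms4a2 among them, summed to 151 and 205 CPM in Ripk3-/- Mlkl-/- against 676 to 760 CPM in wild-type, with 0 of 9 positive. Their part in the Ms4a2 result was not tested. Trim21, a cytosolic antibody receptor that interferon also induces, rose with Ptpn6 deletion in Mlkl-/- (log2 change 0.77, SE 0.18, edgeR adjusted p = 0.0442).

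The signalling chain behind the ITAM, 24 genes from Syk and the Src-family kinases to Card9, Bcl10 and Malt1, gave 2 calls, 1 in Mlkl-/- against wild-type (1.16% of all genes called) and 1 with Ptpn6 deletion averaged over backgrounds (1.55%). Bcl10, which links ITAM signals to NF-κB, rose in Mlkl-/- to 157 ± 8.50 CPM, against 109 ± 11.9 CPM in wild-type (log2 change 0.52, SE 0.12, edgeR adjusted p = 0.0416). Tec, a kinase of the Btk family, fell with Ptpn6 deletion averaged over backgrounds (log2 change -0.47, SE 0.07, edgeR adjusted p = 0.00593). Tec averaged 29.9 ± 0.418 CPM in Ripk3-/- Mlkl-/- Ptpn6∆PMN against 39.1 ± 0.310 CPM in Ripk3-/- Mlkl-/-, 27.4 ± 4.57 CPM in Mlkl-/- Ptpn6∆PMN against 37.1 ± 1.12 CPM in Mlkl-/-, and 24.5 ± 3.13 CPM in Ripk3-/- Ptpn6∆PMN against 37.3 ± 2.07 CPM in Ripk3-/-. Within a single background Tec was not called (edgeR adjusted p = 0.096 to 0.846). Against wild-type, 20, 21 and 22 of the 24 genes had a positive log2 change in Ripk3-/- Mlkl-/-, Mlkl-/- and Ripk3-/- (medians 0.23, 0.26 and 0.11), beside 46.5%, 47.0% and 49.5% of all genes (medians -0.03, -0.03 and 0.00). None of 11 further ITIM receptors, Pirb among them, was called by edgeR in any comparison.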

How the data were processed

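The deposited table holds estimated counts per gene symbol for 25 libraries. The submitters' processing notes name Salmon 0.14.1, DESeq2 and the build GRCm38.p6. The sources used here do not give how transcripts were combined into genes or how the authors divided reads between near-identical genes. Each column was matched to a sample, with 0 left over. Estimated counts were rounded to whole numbers.

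A single edgeR 4.0.16 fit (R 4.3.3) held the 23 libraries of the 9 replicated groups, scaled by TMM and filtered with filterByExpr at a minimum count of 10 and a minimum total of 15. It used the quasi-likelihood F test and 14 residual degrees of freedom. A gene was called where the p-value, adjusted by Benjamini and Hochberg over 16206 genes, was under 0.05. There were 13 comparisons. CPM used effective library sizes. SE is the size of the log2 change over the square root of F, and SD is between libraries.

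The members and gene lists were chosen with earlier results of these data known. Every member was described. Of other lists, called genes were named (at most 4 per direction), and for likeness the 2 genes of highest Pearson correlation. For likeness, 1 gene is not reported here. Alternatives, run on the members and not on the other lists, were DESeq2 size factors, DESeq2 1.42.0, no count filter, a fit without the other groups, replicate number as a block, and each library left out. Scripts were tested on simulated data. Sequences came from GENCODE M21 and RefSeq (GRCm38.p6).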

Additional observations from a re-analysis of the deposited data

Results flagged for a closer look

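The library Casp8∆PMN Ptpn6∆PMN, the only library labelled as inflamed, has no replicate and entered no test. It was looked at because all 10 genes were above the highest wild-type library in it. The share of all genes above wild-type in this library was not counted, so all 10 is not read as a result about the members. Trem1 stood at 388 CPM, the highest of the assigned libraries, against 143 to 165 CPM in wild-type. Pira2 stood at 365 CPM against 234 to 279 CPM, Fcgr1 at 4.89 CPM against 0.757 to 1.60 CPM, and Fcgr2b at 47.7 CPM against 38.3 to 45.1 CPM in wild-type. Fcgr3 (762 CPM), Fcgr4 (158 CPM), Fcer1g (1255 CPM), Tyrobp (1332.5 CPM), Hcst (63.6 CPM) and Trem3 (205 CPM) were above wild-type as well. The summed monocyte markers were 1637 CPM in this library, against 985 to 1075 CPM in wild-type, and their part was not tested.

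The library whose title and genotype label contradict each other was looked at because 8 of the 10 genes were above the highest wild-type library in it. Here too the share of all genes above wild-type was not counted, so 8 of 10 is not read as a result about the members. Its title reads as Ripk3-/- Mlkl-/- and its genotype label as Mlkl-/- Ptpn6∆PMN. It had 2 counts of Ripk3, 0.746 CPM of Mlkl and 582 CPM of Ptpn6. The Ripk3-/- Mlkl-/- libraries had 1 count of Ripk3 each, and 631 and 551 CPM of Ptpn6. The Mlkl-/- Ptpn6∆PMN libraries had 54 and 88 counts of Ripk3, and 182 and 193 CPM of Ptpn6. In the library with contradicting labels Fcgr1 (2.72 CPM), Fcgr3 (703 CPM), Fcgr4 (145 CPM), Fcer1g (896.5 CPM), Tyrobp (1380 CPM), Hcst (60.1 CPM), Trem1 (258 CPM) and Trem3 (171 CPM) were above every wild-type library. Fcgr2b (33.7 CPM) and Pira2 (100.9 CPM) were below every wild-type library. Groups of 2 or 3 libraries were too small to look for outlying samples.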

How the results depend on the processing

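The number of the 10 members called kept its value under most alternatives. In Mlkl-/- against wild-type it was 1, and 0 to 1 when a library was left out (Trem1 log2 change 0.74 to 0.85, edgeR adjusted p = 0.0412 to 0.235). With a replicate block it was 0 (Trem1 log2 change 0.81, edgeR adjusted p = 0.0529). A fit of only the libraries compared called 1 member in Ripk3-/- against wild-type (Trem1), beside 1.24% of all genes. In Ripk3-/- Mlkl-/- against wild-type it called 4 (Fcgr2b, Fcgr3, Trem1 and Pira2), beside 5.49% of all genes. The fit of all groups called 0 members in both, and the smaller fit estimates the spread from fewer libraries. The labels do not say that replicate numbers mark shared mice or days, so the numbers were not used as pairs. Where groups share 3 numbers, deviations of same-numbered libraries correlated at -0.124 to 0.295 and never all above 0.1. Where groups share 2, both values were above 0.1 in Ripk3-/- Mlkl-/- against wild-type (0.174 and 0.196) and with Casp8 deletion in Mlkl-/- Ptpn6∆PMN (0.149 each). In the other comparisons that share 2 they ran from -0.246 to 0.076. Deviations within a group depend on each other, so these few values cannot exclude pairing. The block changed no other count. With a library left out, the log2 changes that changed sign had these ranges. In Ripk3-/- Mlkl-/- against wild-type they ran from -0.1086 to 0.2449 for Fcer1g, -0.2991 to 0.0541 for Hcst and -0.1037 to 0.2651 for Trem3, with the sign turning without replicate 2 of Ripk3-/- Mlkl-/-. With Ptpn6 deletion in Ripk3-/- they ran from -0.0461 to 0.1524 for Fcgr2b (turning without replicate 2 of Ripk3-/-, or 2 or 3 of Ripk3-/- Ptpn6∆PMN), -0.2799 to 0.0102 for Fcgr3 (without replicate 1 of Ripk3-/- Ptpn6∆PMN) and -0.0338 to 1.1319 for Fcgr1 (without its replicate 3). Summing the Pira-type rows turned Pira2 against wild-type to 0.0719, 0.2728 and 0.2894 in Ripk3-/-, Mlkl-/- and Ripk3-/- Mlkl-/-. The cause was not tested. Of 71 further member changes, all uncalled, 40 changed sign under some alternative, and the largest of these had a size of 0.67 on the log2 scale. The low depth of Fcgr1 limits what could be detected for it. The share of all genes called moved more: DESeq2 called 2.76%, 4.95% and 0.611% in Ripk3-/- Mlkl-/-, Mlkl-/- and Ripk3-/- against wild-type, where edgeR called 1.04%, 1.16% and 0.228%, and it called 4.72% with Ptpn6 deletion in Mlkl-/- and 4.13% averaged over backgrounds, where edgeR called 1.51% and 1.55%. With a library left out, edgeR called 0.113% to 0.505% in Ripk3-/- Mlkl-/- and 0.236% to 3.65% in Mlkl-/- against wild-type, and with Ptpn6 deletion 0.00593% to 0.107% in Ripk3-/- Mlkl-/-, 0.0119% to 1.13% in Mlkl-/-, 0.0185% to 0.971% in Ripk3-/- and 0.0415% to 6.45% averaged, so the shares of all genes called are themselves uncertain.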
